A study of Mus musculus with 13 samples.

Results

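The values below describe how treatment with tauroursodeoxycholic acid (TUDCA) altered the response of the mouse heart to pressure overload, gene by gene and function by function. All 13 of the 13 hearts measured by microarray were used, since the question needs every group of the 2 by 2 design. The hearts came from male C57BL/6 mice aged 8 to 10 weeks, taken whole 1 week after surgery. They fell into a TUDCA-TAC group (4 hearts), a TUDCA-Sham group (3 hearts), a Veh-TAC group (3 hearts) and a Veh-Sham group (3 hearts). TAC is transverse aortic constriction, sham is the same operation without the band, and TUDCA at 300 mg/kg per day or water as the vehicle (Veh) was given by mouth from the day of surgery. The response to TAC is the mean log2 level of the TAC hearts minus that of the sham hearts within a treatment. The quantity of interest is the response with TUDCA minus the response with vehicle, called here the difference of responses, which was computed for all 8336 genes with a symbol.

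Constriction of the aorta makes the left ventricle pump against a raised pressure. The ventricle thickens, fibroblasts lay down matrix, immune cells gather, and genes for fat burning and for ion channels are turned down. TUDCA is a bile acid used as a chemical chaperone, a small molecule that helps proteins fold in the endoplasmic reticulum (ER). A drug can blunt every part of such a response by the same share, or spare some parts and abolish others. A called difference does not tell these cases apart, since blunting by one share gives larger differences for larger responses, so the median response of a list is also given as a share of its vehicle response.

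Each heart was hybridised to 1 Illumina array, and between 11647 and 12791 probes were detected on an array. Array background (the 25th percentile of the raw values of an array) was 164.4 to 270.4 on the TUDCA-TAC arrays, 259.2 to 306.5 on the TUDCA-Sham arrays, 302.7 to 309.9 on the Veh-TAC arrays and 311 to 314.5 on the Veh-Sham arrays. TUDCA-TAC heart 4 stood apart, with a 90th over 25th percentile of 19.3 against 6.49 to 8.52 on the other 12 arrays. The second principal component, an axis of shared variation over all genes, held 20.4% of the variance. On it TUDCA-TAC hearts 3 and 4 (-22 and -31.5) lay below every other heart, while hearts 1 and 2 of that group lay at 9.5 and 5.74. Fits without both hearts 3 and 4 are also given. Every TUDCA-TAC array lay below every Veh-TAC array in background, but the TUDCA-Sham group was split. Its hearts 1 and 2 (302.8 and 306.5) lay with the vehicle arrays, and its heart 3 (259.2) lay with the TUDCA-TAC arrays. Whether the arrays of low background were handled together was not tested. Such handling could not be fully told apart from the difference of responses. A fit with the background level as a covariate was also run. Since low background went with every TUDCA-TAC array and with no vehicle array, this fit cannot fully separate background from treatment. Each gene here was detected on at least 8 of the 13 arrays, and genes detected in the 7 TAC hearts alone were not analysed. Hearts are numbered here by the replicate number in their descriptions. Their titles carry other numbers, so that TUDCA-TAC heart 4 is titled 1 and TUDCA-TAC heart 3 is titled 4. The labels say no more of their origin, and the p-values measure the spread between these samples.

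The difference of responses passed an adjusted p of 0.05 in limma for 178 of 8336 genes (2.14%). It was negative, meaning a lower response with TUDCA, for 107 genes (1.28%) and positive for 71 genes (0.852%). The response with TUDCA was called for 149 genes (1.79%) and the response with vehicle for 2083 genes (25%). Called differences had a median size of 1.12 on the log2 scale, and the smallest was 0.54. The median standard error of the difference over all genes was 0.229, and the 95% interval reached a median of 0.497 to either side. The count rested on single hearts: it ran between 8 without Veh-TAC heart 3 and 401 without Veh-TAC heart 1, and was 39 with array background as a covariate. All 178 differences kept their sign in each of these fits. Of the 45 called genes named in this section, 20 were still called with the covariate. The other 25 had an adjusted p between 0.0503 and 0.105 with it, namely Acot1, Ano10, C1qtnf3, Camk2a, Ccl12, Ccn4, Ces1d, Col1a2, Col3a1, Cxcl13, Cxcl16, Decr1, Emilin2, Fcgr3, Idh3a, Ky, Lox, Lyz2, Ms4a7, Nupr1, Scn4b, Tgif1, Tnfrsf19, Uchl1 and Wnt5a. Calls were followed over 25 alternative settings, the covariate included. The least stable of those named were Tgif1 and Cxcl13 (called in 7 of 25), Acot1, Decr1 and Lyz2 (8 of 25), Tnfrsf19 (8 of 24) and Col1a2, Idh3a and Scn4b (9 of 25). Outside these 25 stand fits chosen after the data were seen, and in the one with the covariate and without TUDCA-TAC heart 4 only 3 genes were called, Ctss, Nox4 and Ptn.

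Among the 178 genes, 120 lost their response: the difference ran against the vehicle response, and the response with TUDCA had an unadjusted p over 0.05, which does not show that no response was left. Of these, 66 were higher and 54 lower after TAC with vehicle. The response shrank for 43 genes (30 higher and 13 lower with vehicle), which means that a response of the same sign remained with TUDCA at an unadjusted p under 0.05. It turned to the other sign for 13 genes, and for 2 genes it was new with TUDCA. No gene with a vehicle response at an unadjusted p under 0.05 had a called difference that made this response stronger. Genes without such a vehicle response counted as new. The vehicle response is subtracted in the difference, which favours calls against it, so this 0 carries no test. A response was also set against 0.5 times the vehicle response, as a test of how much was kept. This contrast was called by limma for 0 genes in either direction, while 212 genes lay above 0.5 times and 641 below it at an unadjusted p under 0.05.

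The same difference can be split into a TAC side (TUDCA-TAC minus Veh-TAC) and a sham side (TUDCA-Sham minus Veh-Sham). For the 178 called genes the median of the TAC side was 0.952 on the log2 scale, in the direction of the difference. The median of the sham side was -0.162 in that direction, and since the sham side is subtracted it added to the difference, as it did for 150 of the 178 genes. The TAC side was the larger of the pair for 167 genes and the sham side for 11 genes. The TUDCA-TAC and Veh-TAC hearts did not overlap for 173 of the 178 genes, and for 26.2% of all genes. These figures describe genes chosen by the same contrast and carry no test.

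**Figure D1:**
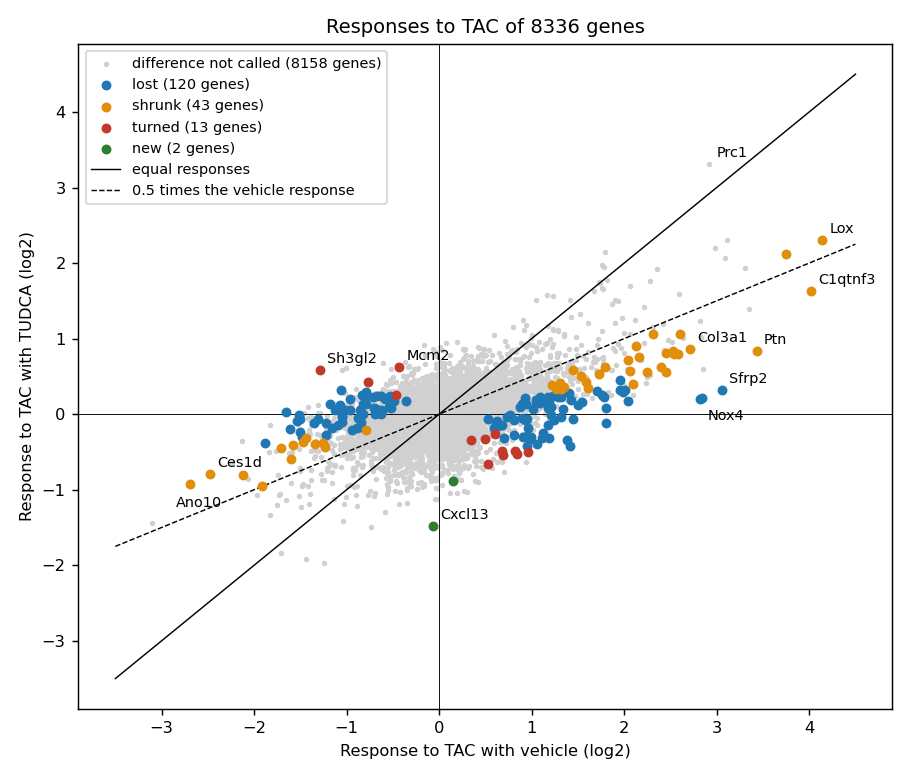
Each point is 1 of 8336 genes, with its response to TAC with TUDCA on the vertical axis and with vehicle on the horizontal axis, both on the log2 scale. The solid line marks equal responses and the dashed line 0.5 times the vehicle response. The 120 lost genes (blue) lie along the horizontal axis, the 43 shrunk genes (orange) lie farther from it on the side of their vehicle response, and Prc1 lies by the solid line.

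To see which functions kept their response, genes were gathered in 60 lists, of which 59 had at least 5 measured members. The median vehicle response was at least 0.25 in size for 28 of these lists. Over all genes the median response was -0.000614 with TUDCA and -0.0299 with vehicle, and the median size of a response was 0.156 with TUDCA and 0.272 with vehicle. The slope of the response with TUDCA on the response with vehicle, corrected for the error of the vehicle response, was 0.391 across all genes, which are not independent, and ran between 0.326 and 0.459 over the 25 alternative settings. Of the 28 lists, 6 kept their response, with a median with TUDCA over 0.67 times the median with vehicle. These were mitosis, other collagens, basement membrane, matrix proteases and inhibitors, immediate early genes and the cytoskeleton. The class is one of medians and does not mean that members passed a test: of 38 cytoskeleton genes 0 were called with TUDCA while 15 rose and 1 fell with vehicle, and of 17 immediate early genes 0 were called with TUDCA while 6 rose with vehicle. The cytoskeleton held its class in 20 of 25 settings, with a ratio of 0.518 to 0.863 when single hearts were left out. Immediate early genes held it in 17 of 25, with a ratio of 0.444 to 1.2. In 7 lists the response shrank to between 0.25 and 0.67 times: fibrillar collagens, collagen processing, elastic fibres, matricellular proteins, fetal and load-induced muscle genes, targets of the lipid-sensing PPAR receptors, and interferon-stimulated genes. In 15 lists less than 0.25 times was left, among them ion channels, fatty acid oxidation, the tricarboxylic acid cycle, respiratory complex I, metabolic regulators, S100 proteins and annexins, complement, antigen presentation and lysosome. Another 30 lists were flat, with a median vehicle response under 0.25, and the ER chaperones were among them.

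**Figure D2:**
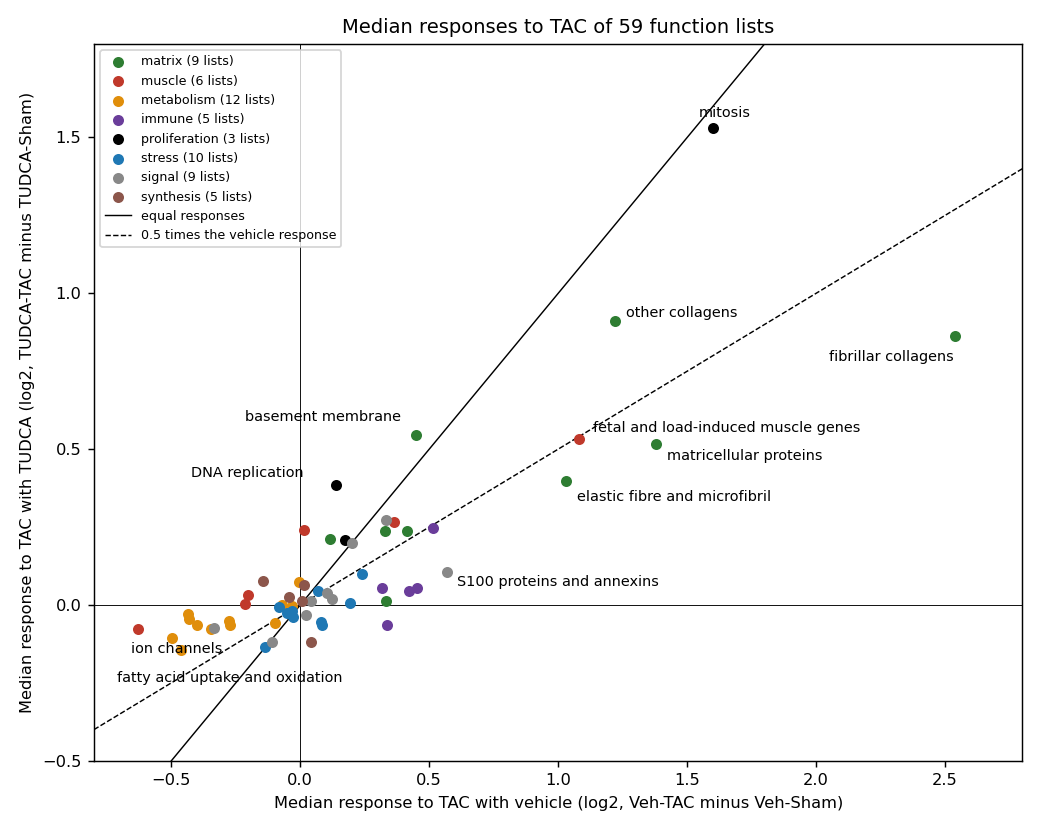
Each point is 1 of 59 function lists, with the median response to TAC of its measured genes with TUDCA (vertical) and with vehicle (horizontal), both on the log2 scale and coloured by theme. Mitosis (1.53 with TUDCA, 1.60 with vehicle) lies by the line of equal responses, while fibrillar collagens (0.863 with TUDCA, 2.54 with vehicle) lie below the dashed line of 0.5 times the vehicle response.

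Mitosis genes kept their response. Of 39 genes listed, 10 were measured: the response with TUDCA was called for 8 of them and the response with vehicle for 9, all of them upwards, and the difference of responses for 0 (2 of 10 had a positive difference). The median response was 1.53 with TUDCA and 1.60 with vehicle, 0.955 times as large. The mean log2 level of the list was 8.90, 8.45, 8.91 and 8.08 in the TUDCA-TAC hearts and 7.02, 7.13 and 7.16 in the TUDCA-Sham hearts, against 9.15, 8.79 and 8.94 in the Veh-TAC hearts and 7.28, 7.49 and 7.16 in the Veh-Sham hearts. In both treatments every TAC heart lay above every sham heart, and TUDCA-TAC hearts 2 and 4 lay below all Veh-TAC hearts. Detection favours genes that are bright after TAC, and 5 of the 10 were detected on all 6 sham arrays. Over these 5 the median response was 1.33 with TUDCA and 1.52 with vehicle. The list stayed kept in 25 of 25 alternative settings, with 0.85 to 1.08 times the vehicle response when single hearts were left out.

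Prc1, which bundles the microtubules of the spindle midzone as cells divide, had the largest response of the list with TUDCA. Its log2 level was 9.74, 9.25, 10.21 and 8.81 in the TUDCA-TAC hearts and 6.59, 5.65 and 6.33 in the TUDCA-Sham hearts, against 10.15, 9.69 and 9.82 in the Veh-TAC hearts and 7.58, 6.61 and 6.72 in the Veh-Sham hearts. The TAC hearts of both treatments overlapped. The response was 3.31 with TUDCA and 2.92 with vehicle (difference 0.39, 95% interval -0.67 to 1.46). This positive difference came from the sham side (-0.779), since the TAC side was also negative (-0.384). Prc1 was detected on 5 of 6 sham arrays, and its difference was -0.0429 in the authors' normalized table. Cdc20, an activator of the anaphase-promoting complex, responded by 1.62 with TUDCA and by 1.68 with vehicle (difference -0.05, 95% interval -0.83 to 0.72). Birc5, the survivin of the chromosomal passenger complex, gave 1.56 with TUDCA and 1.23 with vehicle (difference 0.33, 95% interval -0.63 to 1.29). It was detected on 4 of 6 sham arrays, and its difference too came from the sham side (-0.575, against -0.246 on the TAC side). The widest gap was that of Anln, an actin-binding protein of the cleavage furrow, at 1.59 with TUDCA and 2.60 with vehicle (difference -1.0 ± 0.38 standard error, adjusted p = 0.165). The intervals of Prc1, Cdc20 and Birc5 allow a loss of part of the response or a gain, while that of Anln (-1.82 to -0.18) lies below 0. In bulk tissue, more cells in division and more RNA per dividing cell cannot be told apart, nor can fewer cells of any type and less RNA per cell.

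Sequence upstream of mitosis genes often holds a CHR element (TTTGAA), bound with CCAAT boxes nearby by the complexes that switch these genes on as cells enter division. Both were searched on both strands in the 250 bases before the gene start in RefSeq's GRCm38.p6, a search added after the values had been seen. CHR and CCAAT stood together in 4 of the 10 measured mitosis genes (40.0%), namely Cdk1, Cdc20, Kif22 and Prc1, and in 4.88% of all measured genes with a promoter. The promoters of Prc1 and Cdc20 are shown since both genes are described above and hold both elements, with TTTGAA and CCAAT in capitals. They lie at chr7:80294226-80294475 on the plus strand, for the second of 2 annotated starts of Prc1, and at chr4:118437344-118437593 on the minus strand.
Prc1: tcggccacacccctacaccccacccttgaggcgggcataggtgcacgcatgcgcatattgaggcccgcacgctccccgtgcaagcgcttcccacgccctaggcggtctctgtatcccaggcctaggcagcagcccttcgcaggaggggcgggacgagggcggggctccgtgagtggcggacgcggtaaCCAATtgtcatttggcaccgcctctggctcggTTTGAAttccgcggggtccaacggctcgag
Cdc20: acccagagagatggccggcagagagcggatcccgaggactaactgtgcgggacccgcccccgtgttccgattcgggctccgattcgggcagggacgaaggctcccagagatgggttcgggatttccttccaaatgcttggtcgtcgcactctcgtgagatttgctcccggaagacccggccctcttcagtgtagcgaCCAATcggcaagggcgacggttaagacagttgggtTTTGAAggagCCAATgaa
In Prc1 the CHR element began 30 bases before the gene start and the CCAAT box 62 bases before it. A match of letters is not evidence of binding.

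DNA replication genes had no such shared response. Of 28 measured, the response with TUDCA was called upwards for 3 and the response with vehicle for 6 upwards and 5 downwards. The median was 0.386 with TUDCA and 0.138 with vehicle, but over the 21 members detected on all 6 sham arrays it was 0.172 with TUDCA and -0.0231 with vehicle. The only call of the difference was Mcm2, a subunit of the replicative helicase. Its log2 level was 7.81, 7.91, 7.79 and 7.88 in the TUDCA-TAC hearts and 7.09, 7.21 and 7.39 in the TUDCA-Sham hearts, against 7.11, 6.79 and 6.68 in the Veh-TAC hearts and 7.32, 7.37 and 7.18 in the Veh-Sham hearts. TAC hearts thus lay above sham hearts with TUDCA and below them with vehicle, with no overlap on either side. The difference was 1.05 ± 0.17 (adjusted p = 0.0209), and the call was kept in 19 of 25 alternative settings. Mcm5 of the same helicase gave 1.04 with TUDCA and 0.59 with vehicle (adjusted p of the difference 0.452), and Rpa2, which coats single-stranded DNA, 0.02 with TUDCA and -0.76 with vehicle (adjusted p = 0.0702).

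Collagens build the scar. For fibrillar collagens, the rope-forming chains, the median shrank: of 5 measured, the difference was called for 2, both downwards, with a median response of 0.863 with TUDCA and 2.54 with vehicle. Col3a1, the type III chain, had log2 levels of 11.03, 11.28, 11.20 and 10.75 in the TUDCA-TAC hearts and 9.76, 10.97 and 9.87 in the TUDCA-Sham hearts, against 12.39, 12.91 and 12.63 in the Veh-TAC hearts and 10.25, 9.81 and 9.74 in the Veh-Sham hearts. All TUDCA-TAC hearts lay below all Veh-TAC hearts and overlapped the TUDCA-Sham hearts only through heart 2 of that sham group. The difference was -1.85 ± 0.39 (adjusted p = 0.0429, and 0.0924 with array background as a covariate). Col1a2, a chain of type I collagen, responded by 0.79 with TUDCA and 2.54 with vehicle (difference -1.75, adjusted p = 0.0468).

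Col1a1, the partner chain of Col1a2 in type I collagen, did not pass. Its levels were 10.72, 11.04, 11.62 and 12.32 in the TUDCA-TAC hearts and 8.73, 9.45 and 9.50 in the TUDCA-Sham hearts, against 11.73, 12.69 and 11.51 in the Veh-TAC hearts and 9.42, 8.44 and 9.12 in the Veh-Sham hearts. TUDCA-TAC heart 4, the array that stood apart, had the highest Col1a1 and the lowest Col1a2 of its group. The response of Col1a1 was 2.20 with TUDCA and 2.99 with vehicle, and the 95% interval of the difference ran between -2.04 and 0.47. Without TUDCA-TAC hearts 3 and 4 the difference of Col1a1 was -1.33 (adjusted p = 0.177). Col5a1, a chain of the minor fibrillar type V, responded by 1.20 with TUDCA and 1.9 with vehicle (adjusted p = 0.246).

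Other collagens, which form networks and sit on fibril surfaces, kept 0.746 times their median response. Of 6 measured members 5 rose with TUDCA and 6 with vehicle, with medians of 0.911 with TUDCA and 1.22 with vehicle. The difference was called for 0 and was negative for 6 of 6. Col18a1, the source of endostatin, gave 0.89 with TUDCA and 0.94 with vehicle (95% interval of the difference -0.60 to 0.49), and Col6a1 of type VI collagen 0.93 with TUDCA and 1.23 with vehicle (difference -0.30, 95% interval -0.78 to 0.19). At the other end of the list Col16a1 gave 1.23 with TUDCA and 2.82 with vehicle (difference -1.58, adjusted p = 0.0547). Without TUDCA-TAC hearts 3 and 4 the ratio of medians was 0.634, below the limit for kept. Both collagen lists are short, and their mean responses were 1.13 with TUDCA and 2.06 with vehicle for fibrillar collagens, and 0.938 with TUDCA and 1.52 with vehicle for other collagens. By these means the other collagens also lay below 0.67 times, the limit for kept. A difference between the lists was not tested. Basement membrane genes had a median of 0.545 with TUDCA and 0.45 with vehicle over 13 members, but 0.288 times the vehicle response without those hearts, and 0 of the 13 rose with TUDCA at the threshold. Nid2, a nidogen that links laminin to collagen IV, gave 0.77 with TUDCA and 0.42 with vehicle (95% interval of the difference -0.26 to 0.98).

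Enzymes that finish collagen shrank with it. Lox, lysyl oxidase, which crosslinks collagen and elastin, responded by 2.31 with TUDCA and by 4.14 with vehicle. Its log2 level was 10.92, 11.20, 10.90 and 10.38 in the TUDCA-TAC hearts and 8.07, 9.05 and 8.51 in the TUDCA-Sham hearts, against 12.19, 12.71 and 12.34 in the Veh-TAC hearts and 8.45, 8.31 and 8.05 in the Veh-Sham hearts. Each TUDCA-TAC heart was above the sham hearts and below the Veh-TAC hearts (difference -1.84 ± 0.35, adjusted p = 0.0316, and 0.0718 with the covariate). Of 20 genes for collagen processing and crosslinking, 2 rose with TUDCA and 10 with vehicle, and Lox was the only call of the difference. P4hb, the beta subunit of prolyl 4-hydroxylase and also a disulfide isomerase, gave 0.13 with TUDCA and 0.66 with vehicle (adjusted p = 0.103). In elastic fibres and microfibrils the median was 0.397 with TUDCA and 1.03 with vehicle over 13 genes. Mfap2, a microfibril glycoprotein, responded by 0.40 with TUDCA and 2.10 with vehicle (difference -1.70 ± 0.24, adjusted p = 0.012) and was called in 25 of 25 alternative settings, while Emilin2 of the same fibres lost a fall, at 0.06 with TUDCA and -1.12 with vehicle (adjusted p = 0.0447).

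Matricellular proteins signal between matrix and cells and are made during repair. The response of this list shrank to a median of 0.517 with TUDCA, against 1.38 with vehicle, over 14 members: 2 rose with TUDCA, 9 with vehicle, and the difference was called downwards for 2. The mean level of the list was 10.11, 10.17, 10.27 and 10.05 in the TUDCA-TAC hearts and 9.51, 9.76 and 9.68 in the TUDCA-Sham hearts, against 10.63, 11.20 and 10.68 in the Veh-TAC hearts and 9.57, 9.51 and 9.63 in the Veh-Sham hearts. No TUDCA-TAC heart reached a Veh-TAC heart, and none fell to a sham heart. Thbs2, an inhibitor of vessel growth, responded by 0.31 with TUDCA and 1.71 with vehicle (difference -1.40 ± 0.27, adjusted p = 0.0343). Ccn4, a secreted Wnt target also called WISP1, responded by 0.81 with TUDCA and 2.46 with vehicle (difference -1.65 ± 0.35, adjusted p = 0.0447). Ccn2, the connective tissue growth factor, gave 0.65 with TUDCA and 1.92 with vehicle (adjusted p = 0.074). Tenascin C, encoded by Tnc, was not above background on any Veh-Sham array, so that its response with vehicle was at least 6.72-fold and its difference of responses is not given. Across the matrix the fibroblast marker list moved with these genes, with a median of 0.337 with TUDCA and 0.746 with vehicle over 14 markers (0.672 times the vehicle response with array background as a covariate, which counts as kept), and the activated fibroblast list with 0.585 with TUDCA and 1.86 with vehicle over 7. Some markers are also members of the matrix lists, and the part of cell number in the result was not tested.

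Among the most negative called differences were those of secreted factors and of Nox4. Sfrp2, a secreted Wnt modulator of fibroblasts, had log2 levels of 9.63, 9.74, 9.28 and 9.39 in the TUDCA-TAC hearts and 8.88, 9.58 and 9.13 in the TUDCA-Sham hearts, against 11.53, 12.70 and 11.69 in the Veh-TAC hearts and 8.83, 9.07 and 8.83 in the Veh-Sham hearts. With TUDCA the TAC and sham hearts shared a range, and every Veh-TAC heart was above all other hearts. Its difference was -2.75 ± 0.37 (adjusted p = 0.0118), the most negative of all called genes, and the 95% interval of the response left with TUDCA ran between -0.24 and 0.86. Nox4, an oxidase that makes hydrogen peroxide, was 7.91, 7.51, 7.96 and 8.26 in the TUDCA-TAC hearts and 7.72, 7.90 and 7.50 in the TUDCA-Sham hearts, against 9.48, 10.33 and 9.84 in the Veh-TAC hearts and 7.29, 7.10 and 6.79 in the Veh-Sham hearts. Part of the Nox4 difference of -2.62 ± 0.31 (adjusted p = 0.0118) lay on the sham side, where the TUDCA-Sham hearts averaged 0.643 above the Veh-Sham hearts without overlap. Sfrp2 and Nox4 were both called in 25 of 25 alternative settings.

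Pleiotrophin and midkine are a pair of heparin-binding growth factors, and both lagged with TUDCA. Ptn responded by 0.84 with TUDCA and 3.43 with vehicle (difference -2.60 ± 0.33, adjusted p = 0.0118). Mdk responded by 0.17 with TUDCA and 2.05 with vehicle (difference -1.87 ± 0.26, adjusted p = 0.012). Both calls held in 25 of 25 alternative settings. Their list of 25 growth factors was flat, at a median of 0.0204 with TUDCA and 0.122 with vehicle. C1qtnf3, a secreted C1q and TNF related protein, gave 1.63 with TUDCA and 4.02 with vehicle (difference -2.39, adjusted p = 0.0447). The 10 most negative called differences also held Matn4, a matrix adaptor protein of the matrilin family (-2.63, detected on 3 of 6 sham arrays), Mt2, a metal-binding metallothionein (-1.92), and Gxylt2, which adds xylose to Notch receptors (-1.89, called in 25 of 25 settings).

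**Figure D3:**
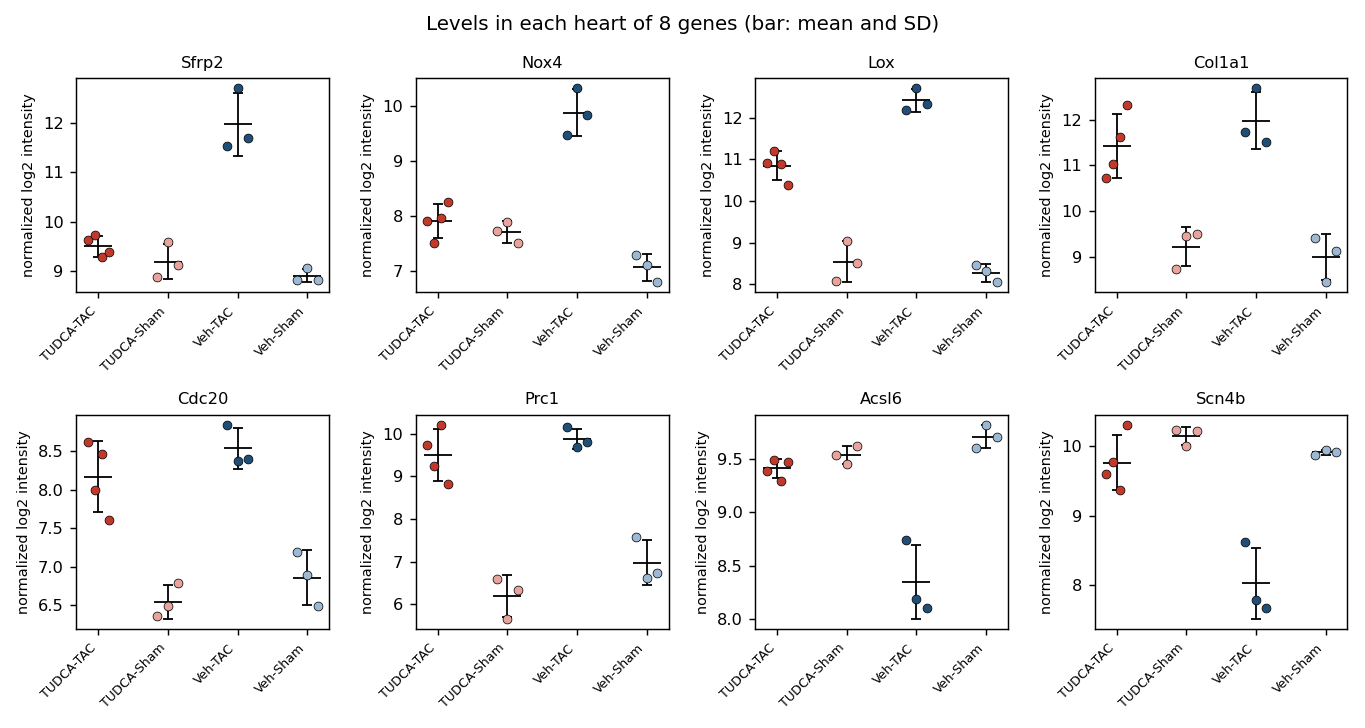
Points are the normalized log2 intensities of 8 genes in each of 13 hearts (vertical axis) by group (horizontal axis), with bars for the mean and SD of a group. With TUDCA the TAC hearts sit at the level of the sham hearts for Sfrp2 and for Nox4, between the sham and Veh-TAC hearts for Lox, and within reach of the Veh-TAC hearts for the mitosis genes Prc1 and Cdc20.

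TGF-β signalling drives fibroblasts towards matrix, and as a list it was flat at the transcript level: of 25 genes, 7 rose and 1 fell with vehicle, and the medians were 0.0399 with TUDCA and 0.102 with vehicle. Tgif1, a repressor of TGF-β target genes, was the only call of the difference, at 0.06 with TUDCA and 1.02 with vehicle (adjusted p = 0.0473). The type I receptor Tgfbr1 gave 0.23 with TUDCA and 0.84 with vehicle (adjusted p = 0.0727), and the type II receptor Tgfbr2 gave 0.13 with TUDCA and 0.40 with vehicle (adjusted p = 0.503). Of the ligands, Tgfb1 gave 0.22 with TUDCA and -0.26 with vehicle (adjusted p = 0.104), and Tgfb2 0.19 with TUDCA and 0.94 with vehicle (adjusted p = 0.26). The proteases that cut matrix and their inhibitors, taken as 1 list, kept 0.724 times their median response over 20 genes, a class that held in 14 of 25 settings. Mmp2, a gelatinase, gave 0.72 with TUDCA and 1.69 with vehicle (adjusted p = 0.11), and Mmp9, the other gelatinase, -0.23 with TUDCA and -0.40 with vehicle (adjusted p = 0.798). Wnt5a, a Wnt ligand that acts without β-catenin, lost a fall, at -0.12 with TUDCA and -1.22 with vehicle (difference 1.10 ± 0.19, adjusted p = 0.0243).

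Among immune functions, macrophage markers had a median of 0.17 with TUDCA and 0.698 with vehicle over 14 genes: 0 rose and 1 fell with TUDCA, 9 rose and 1 fell with vehicle, and the difference was called downwards for 3. The mean level of the list was 10.01, 9.89, 9.81 and 9.76 in the TUDCA-TAC hearts and 9.69, 10.01 and 9.87 in the TUDCA-Sham hearts, against 10.33, 10.23 and 10.17 in the Veh-TAC hearts and 9.75, 9.76 and 9.72 in the Veh-Sham hearts. With TUDCA the TAC and sham hearts overlapped, and with vehicle they were apart. The difference was negative for 12 of the 14 markers. Retnla went the other way, with a difference of 1.66 that was not called. The 3 called markers, named after their values had been seen, were Ms4a7, a membrane protein of macrophages (0.84 with TUDCA, 2.53 with vehicle, adjusted p = 0.0447), Fcgr3, a receptor for antibodies (0.23 with TUDCA, 1.18 with vehicle, adjusted p = 0.0316), and Lyz2, the lysozyme of myeloid cells (-0.42 with TUDCA, 0.95 with vehicle, adjusted p = 0.048). The ratio of medians of the macrophage list was 0.243, close to the limit of 0.25 for lost, and the class held in 14 of 25 settings, with a ratio of 0.276 with array background as a covariate and 0.371 without TUDCA-TAC hearts 3 and 4.

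Lysosomal genes fell into the same class and held it in 24 of 25 settings. Of 34 genes, 0 were called with TUDCA and 15 rose and 2 fell with vehicle, with a median of 0.0533 with TUDCA and 0.318 with vehicle. The most negative differences were those of 2 cathepsins. Ctss, the cathepsin S of antigen-presenting cells, had levels of 8.21, 8.30, 8.22 and 7.31 in the TUDCA-TAC hearts and 8.48, 8.78 and 8.02 in the TUDCA-Sham hearts, against 9.59, 9.41 and 9.22 in the Veh-TAC hearts and 8.01, 8.07 and 7.91 in the Veh-Sham hearts. With vehicle the groups were apart, while with TUDCA they overlapped (difference -1.83 ± 0.34, adjusted p = 0.0316). Ctsk, the collagen-cutting cathepsin K, gave 0.55 with TUDCA and 2.25 with vehicle (difference -1.70 ± 0.26, adjusted p = 0.0157). Antigen presentation genes had a median of -0.0634 with TUDCA and 0.338 with vehicle over 16 genes, and among them the class II chain H2-Aa gave -0.63 with TUDCA and 0.45 with vehicle (adjusted p = 0.0614). This list moved to the turned class, at -0.61 times with array background as a covariate and -0.294 times without TUDCA-TAC hearts 3 and 4.

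S100 proteins, annexins and galectins, calcium- and sugar-binding proteins of injured tissue, lost their response in 25 of 25 settings. Of 21 genes, 0 rose with TUDCA and 9 with vehicle, with a median of 0.106 with TUDCA and 0.567 with vehicle. Lgals3, galectin-3, responded by 0.26 with TUDCA and 1.76 with vehicle (difference -1.50 ± 0.25, adjusted p = 0.0217). Anxa1, an annexin that limits inflammation, responded by -0.31 with TUDCA and 1.12 with vehicle (adjusted p = 0.0468). Among chemokines and cytokines the median was 0.0453 with TUDCA and 0.422 with vehicle over 28 genes, 0.107 times as large, but 0.34 times with array background as a covariate. Ccl12, which draws monocytes, gave 0.76 with TUDCA and 2.17 with vehicle (adjusted p = 0.0393), and Cxcl16, a membrane-bound chemokine, had a difference of -1.05 (adjusted p = 0.0393). Complement genes had a median of 0.0545 with TUDCA and 0.452 with vehicle over 14 genes with 0 calls of the difference, and C1qb, a chain of C1q, came nearest with a difference of -0.68 (adjusted p = 0.0552). Interferon-stimulated genes were in the shrunk class with 0.48 times their vehicle response, at 0.246 with TUDCA and 0.513 with vehicle over 33 genes and a median difference of -0.0462, but the ratio was -0.0576 without TUDCA-TAC hearts 3 and 4.

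**Figure D4:**
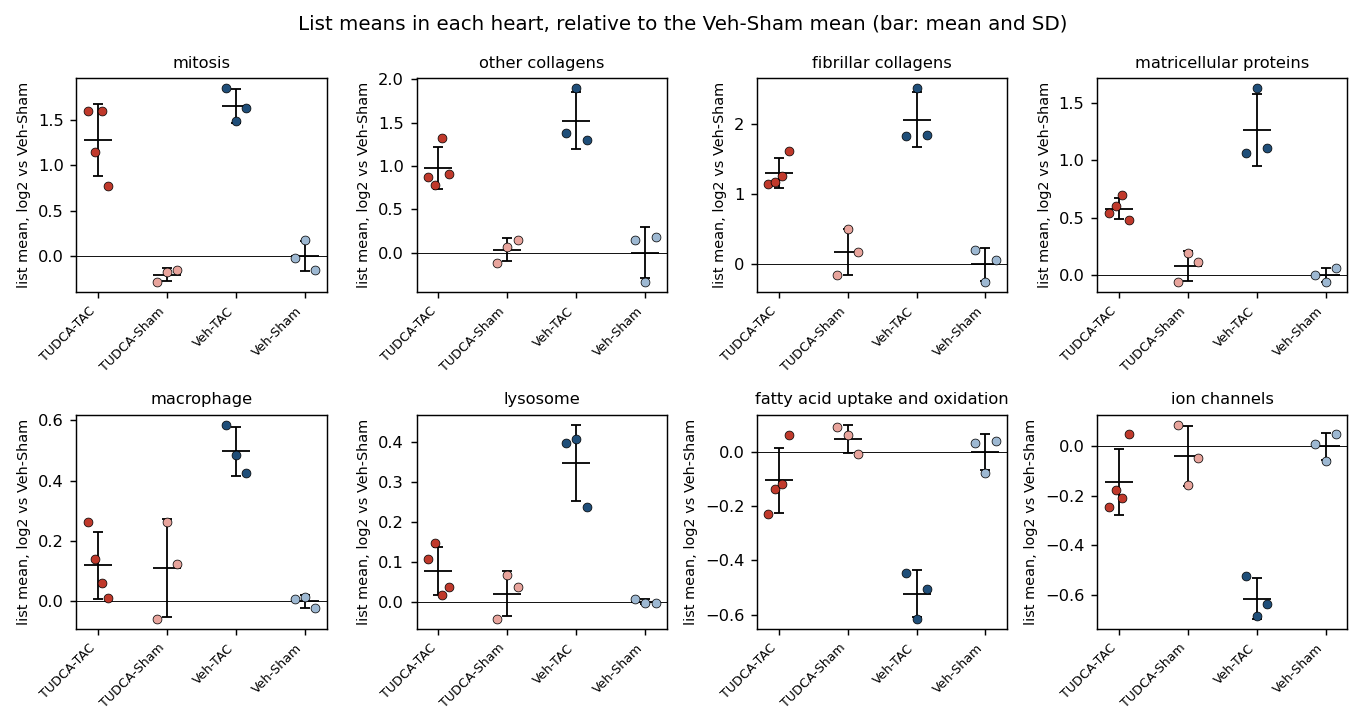
Points are the mean log2 levels of 8 gene lists in each of 13 hearts, set against the mean of the Veh-Sham hearts, with bars for the mean and SD of a group. TUDCA-TAC hearts stand near the Veh-TAC hearts for mitosis, below them for fibrillar collagens and matricellular proteins, and nearer to the sham hearts for macrophage and lysosome genes.

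In energy metabolism the response with vehicle was a fall, and little of it was seen with TUDCA. Of 37 genes for fatty acid uptake and oxidation, 0 were called with TUDCA and 1 rose and 18 fell with vehicle, with a median of -0.107 with TUDCA and -0.499 with vehicle. The mean level of the list was 11.69, 11.78, 11.80 and 11.98 in the TUDCA-TAC hearts and 12.01, 11.98 and 11.91 in the TUDCA-Sham hearts, against 11.47, 11.30 and 11.41 in the Veh-TAC hearts and 11.95, 11.84 and 11.96 in the Veh-Sham hearts. TUDCA-TAC hearts lay above all Veh-TAC hearts, and 3 of the 4 lay below all TUDCA-Sham hearts. Acsl6, an acyl-CoA synthetase that activates fatty acids, had levels of 9.38, 9.49, 9.29 and 9.47 in the TUDCA-TAC hearts and 9.53, 9.45 and 9.61 in the TUDCA-Sham hearts, against 8.74, 8.19 and 8.11 in the Veh-TAC hearts and 9.60, 9.82 and 9.70 in the Veh-Sham hearts. The Veh-TAC hearts were below all others (difference 1.23 ± 0.20, adjusted p = 0.0219). Decr1, a reductase for unsaturated fatty acids, gave -0.11 with TUDCA and -0.85 with vehicle (difference 0.74 ± 0.17, adjusted p = 0.0468). The ratio of medians of this list was 0.353 with array background as a covariate and 0.405 without TUDCA-TAC hearts 3 and 4, which moved it to the shrunk class.

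Targets of PPAR, the fatty acid sensing receptors, shrank, at -0.144 with TUDCA and -0.464 with vehicle over 29 genes. Acot1, a thioesterase that splits acyl-CoA, gave -0.80 with TUDCA and -2.12 with vehicle (adjusted p = 0.0457). Ces1d, a carboxylesterase that can split triglycerides, gave -0.79 with TUDCA and -2.48 with vehicle (difference 1.69 ± 0.31, adjusted p = 0.0316). The PPAR response element, searched as AGGTCANAGGTCA on both strands in the 250 bases before the gene start, was found in 0 of 21 promoters of this list and 0 of 31 of the fatty acid list, and in 0.0295% of all measured genes with a promoter, which says only that these letters are not in those windows. In the tricarboxylic acid cycle 0 of 24 genes fell with TUDCA and 11 with vehicle, a list with 0.158 times its vehicle response, and 0.368 times with array background as a covariate. Idh3a, the catalytic subunit of NAD-dependent isocitrate dehydrogenase, gave 0.01 with TUDCA and -0.65 with vehicle (adjusted p = 0.0447), and Dlat, the E2 subunit of pyruvate dehydrogenase, 0.13 with TUDCA and -0.94 with vehicle (adjusted p = 0.0572). For respiratory complex I, 0 of 36 genes fell with TUDCA and 15 with vehicle, while the difference was called for 0. The ratio of medians of this list was 0.224, close to the limit of 0.25 for lost. The class held in 18 of 25 settings, and the ratio was 0.458 with arrays scaled by their median. The list means of TUDCA-TAC hearts 3 and 4 (13.77 and 13.83) lay within the range of the Veh-TAC hearts, and those of hearts 1 and 2 above it. Ndufaf3, an assembly factor of the complex, had a difference of 0.56 (adjusted p = 0.123).

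Regulators of metabolism kept the class lost in 25 of 25 settings, at -0.0449 with TUDCA and -0.431 with vehicle over 25 genes. Ppargc1b, a PGC-1 coactivator of mitochondrial genes, gave 0.41 with TUDCA and -0.53 with vehicle (adjusted p = 0.119). Prkag2, a regulatory subunit of the energy sensor AMPK, gave -0.27 with TUDCA and 0.90 with vehicle (adjusted p = 0.0683). The list for branched-chain amino acids had 0.0679 times its vehicle response, but 0.758 times without TUDCA-TAC hearts 3 and 4. Respiratory complexes III to V were flat, and 15 of their 41 genes lay near the top of the intensity scale.

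Ion channels lost their fall. Of 25 genes, 0 were called with TUDCA and 1 rose and 13 fell with vehicle, with a median of -0.0782 with TUDCA and -0.63 with vehicle. Scn4b, a β subunit of the cardiac sodium channel, had levels of 9.60, 9.77, 9.38 and 10.31 in the TUDCA-TAC hearts and 10.23, 10.00 and 10.22 in the TUDCA-Sham hearts, against 8.62, 7.79 and 7.68 in the Veh-TAC hearts and 9.88, 9.95 and 9.92 in the Veh-Sham hearts. All TUDCA-TAC hearts lay above the Veh-TAC hearts, and 3 of 4 lay below the TUDCA-Sham hearts (difference 1.51 ± 0.34, adjusted p = 0.048, and 0.0985 with array background as a covariate). Kcnd2, a channel of the transient outward potassium current, gave -0.08 with TUDCA and -1.39 with vehicle (adjusted p = 0.0552). The ratio of medians was 0.124, and 0.362 with array background as a covariate. Calcium handling genes were flat as a list, and Camk2a, the alpha form of calmodulin-dependent kinase II, was their only call, at 0.31 with TUDCA and -1.06 with vehicle (adjusted p = 0.0316). Camk2b, the beta form, gave 0.28 with TUDCA and -1.02 with vehicle (adjusted p = 0.0544).

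Muscle genes that load switches on fell in the shrunk class by their medians, 0.533 with TUDCA and 1.08 with vehicle, 0.492 times as large. Of 22 genes, 5 rose with TUDCA and 13 with vehicle. The median difference of responses was only -0.126, beside an SD between hearts of 0.173 for the list mean. Of the 22 genes, 6 lay near saturation on at least 1 array. Uchl1, a deubiquitinating enzyme, was the only call of the difference, at 0.62 with TUDCA and 2.40 with vehicle (difference -1.78 ± 0.36, adjusted p = 0.0393). Rcan1, an inhibitor of calcineurin that calcineurin itself induces, gave 0.49 with TUDCA and 1.59 with vehicle (adjusted p = 0.0538). The scale set a limit for the brightest members. Nppa, which encodes atrial natriuretic peptide, was near saturation on all 13 arrays and gives no response here. Acta1, skeletal α-actin, was near saturation on 3 TUDCA-TAC and 3 Veh-TAC arrays, and Nppb, brain natriuretic peptide, on 3 Veh-TAC arrays, so that their responses are understated. TUDCA-TAC heart 4 lay at 14.45 for Acta1 against 15.99 to 16.03 in the other TUDCA-TAC hearts, and at 14.67 for Nppb against 15.86 to 15.94.

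ER chaperones, the genes that folding stress switches on, had median responses near 0 in both treatments, over members that went both ways. Over 23 genes the median was -0.0261 with TUDCA and -0.0506 with vehicle, 0 were called with TUDCA, 4 rose and 1 fell with vehicle, and the difference was called for 0 by limma (7 of 23 had an unadjusted p under 0.05). Erp44, which retains client proteins in the early secretory pathway, had the most negative difference, at -0.76 with TUDCA and 0.70 with vehicle (difference -1.46, adjusted p = 0.108). The mean level of the list was 10.05, 10.05, 9.91 and 9.86 in the TUDCA-TAC hearts and 10.05, 10.13 and 10.16 in the TUDCA-Sham hearts, against 10.15, 10.09 and 10.07 in the Veh-TAC hearts and 10.11, 10.04 and 10.08 in the Veh-Sham hearts. These means spanned a narrow range, with TUDCA-TAC hearts 3 and 4 the lowest. Genes for ER-associated degradation were flat too, at -0.0539 with TUDCA and 0.0787 with vehicle over 31 genes, with 0 calls of the difference. Txndc5, a disulfide isomerase, had a difference of -0.51 (adjusted p = 0.0912).

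Promoters of chaperone genes can hold the ER stress response element, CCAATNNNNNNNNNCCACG, where ATF6 binds. Searched on both strands in the 250 bases before the gene start, it was found in 7 of 20 chaperone promoters (35.0%), in 1 of 24 of ER-associated degradation (4.17%) and in 0.162% of all measured genes with a promoter. The 2 printed here, with the element in capitals, had the lowest and highest difference of the 7. The Hspa5 window is chr2:34771840-34772089 on the plus strand and the Calr window is chr8:84846932-84847181 on the minus strand (RefSeq, GRCm38.p6), where the capitals of Calr read as the reverse complement.
Hspa5: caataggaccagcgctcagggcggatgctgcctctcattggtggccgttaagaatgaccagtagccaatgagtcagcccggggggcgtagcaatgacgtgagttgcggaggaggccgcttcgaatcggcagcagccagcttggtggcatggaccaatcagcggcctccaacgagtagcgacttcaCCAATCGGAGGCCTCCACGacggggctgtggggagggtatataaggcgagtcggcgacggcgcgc
Calr: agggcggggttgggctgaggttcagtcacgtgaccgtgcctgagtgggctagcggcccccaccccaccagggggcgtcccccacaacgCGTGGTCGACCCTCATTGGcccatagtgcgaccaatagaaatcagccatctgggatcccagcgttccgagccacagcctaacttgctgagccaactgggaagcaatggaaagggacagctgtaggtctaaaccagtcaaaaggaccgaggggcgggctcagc
Over the 7 genes with the element the median response was -0.189 with TUDCA and -0.332 with vehicle, and the difference was called for 0.

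Hspa5 encodes BiP (GRP78), the main chaperone of the ER. Its log2 level was 8.26, 8.08, 7.85 and 6.75 in the TUDCA-TAC hearts and 8.93, 9.00 and 8.51 in the TUDCA-Sham hearts, against 8.50, 7.62 and 7.82 in the Veh-TAC hearts and 9.09, 8.22 and 8.72 in the Veh-Sham hearts. TAC hearts were low in both treatments, and the groups overlapped with vehicle. The difference was -0.38 (95% interval -1.46 to 0.71), and 0.13 with array background as a covariate. Calr, the calcium-binding chaperone calreticulin, gave 0.22 with TUDCA and -0.44 with vehicle (difference 0.66, adjusted p = 0.164). Hsp90b1, which encodes GRP94, gave -0.10 with TUDCA and -0.09 with vehicle (95% interval of the difference -0.55 to 0.53). Eif2ak3, the stress sensor PERK, gave -0.25 with TUDCA and 0.48 with vehicle (adjusted p = 0.348), and Ddit3, the transcription factor CHOP, 0.35 with TUDCA and 0.76 with vehicle (adjusted p = 0.558).

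In the wider list of stress sensors and the integrated stress response, 1 of 25 genes passed. Nupr1, a stress-induced chromatin protein, had levels of 9.80, 9.93, 10.29 and 10.16 in the TUDCA-TAC hearts and 8.67, 9.38 and 8.90 in the TUDCA-Sham hearts, against 10.72, 11.43 and 11.12 in the Veh-TAC hearts and 8.78, 8.73 and 8.83 in the Veh-Sham hearts. Every TUDCA-TAC heart was above the sham hearts and below the Veh-TAC hearts, so that the response shrank without being lost (1.06 with TUDCA, 2.32 with vehicle, difference -1.25 ± 0.28, adjusted p = 0.0468, and 0.0924 with the covariate). Its promoter at chr7:126625471-126625720 on the minus strand carries a TGATGCAA core, where ATF4 and C/EBP factors bind, printed in capitals as its reverse complement.
Nupr1: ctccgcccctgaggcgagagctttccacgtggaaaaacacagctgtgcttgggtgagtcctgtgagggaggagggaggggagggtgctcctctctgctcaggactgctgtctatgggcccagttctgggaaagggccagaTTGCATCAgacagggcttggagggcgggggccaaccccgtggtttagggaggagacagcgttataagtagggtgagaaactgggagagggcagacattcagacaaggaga
Searched on both strands, the core was found in 4 of 22 promoters of that list (18.2%) and in 0.633% of all measured genes with a promoter. Ddit4, an inhibitor of mTORC1 that stress induces, gave -0.74 with TUDCA and 0.22 with vehicle (adjusted p = 0.0579).

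A few responses turned or arose with TUDCA. Sh3gl2, an endophilin of membrane uptake, turned: its levels were 7.94, 7.68, 7.91 and 8.38 in the TUDCA-TAC hearts and 7.29, 7.18 and 7.70 in the TUDCA-Sham hearts, against 6.68, 6.42 and 6.25 in the Veh-TAC hearts and 7.90, 7.93 and 7.40 in the Veh-Sham hearts. With vehicle the groups were apart, and with TUDCA they overlapped by 1 heart (0.58 with TUDCA, -1.29 with vehicle, adjusted p = 0.0157). The 2 new responses, of which Snapc1 was chosen after its values were seen, were falls with TUDCA. Cxcl13, a chemokine that draws B cells, was 6.52, 6.66, 6.79 and 6.80 in the TUDCA-TAC hearts and 7.79, 8.14 and 8.59 in the TUDCA-Sham hearts, against 7.20, 7.80 and 7.33 in the Veh-TAC hearts and 7.54, 7.85 and 7.14 in the Veh-Sham hearts. Its TUDCA-TAC hearts lay below all other hearts, and the mean of its TUDCA-Sham hearts lay 0.669 above that of the Veh-Sham hearts. Snapc1, a factor for small nuclear RNA genes, gave -0.88 with TUDCA and 0.15 with vehicle (adjusted p = 0.0198), with the TUDCA-Sham hearts 0.552 above the Veh-Sham hearts on average.

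Among the 10 most positive called differences were several genes with little described roles in the heart. Ano10, an anoctamin membrane protein, shrank at -0.92 with TUDCA and -2.69 with vehicle. Ky, a muscle protein named after kyphoscoliosis, lost its fall at 0.02 with TUDCA and -1.65 with vehicle. Itgb6, an integrin β subunit that activates latent TGF-β in epithelia, gave -0.19 with TUDCA and -1.61 with vehicle, and Btbd11, a protein with a BTB domain, -0.06 with TUDCA and -1.50 with vehicle. Srrm4, a splicing factor known from neurons, was called in 24 of 24 settings that measured it, and Tnfrsf19, a member of the TNF receptor family, in 8 of 24. Neither was above background on any Veh-TAC array, so their falls with vehicle were at least 2.23-fold for Srrm4 and at least 2.49-fold for Tnfrsf19, and their place among the 10 rests on fitted values below background.

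Markers of heart cell types were read in the same way. Ventricular cardiomyocyte markers were flat, at 0.00484 with TUDCA and -0.00174 with vehicle over 13 genes, of which 7 lay near saturation, and endothelial markers were flat at 0.07 with TUDCA and -0.083 with vehicle over 12 genes. Atrial cardiomyocyte markers kept a fall in 25 of 25 settings, at -0.484 with TUDCA and -0.398 with vehicle over 9 genes, and the amount of atrium in a sample was not measured otherwise. Smooth muscle and pericyte markers turned, at 0.338 with TUDCA and -0.343 with vehicle over 11 genes, with 0 called with TUDCA and 1 rising and 2 falling with vehicle. Among lists of 5 genes, adipocyte markers had medians of -0.903 with TUDCA and -0.196 with vehicle, mesothelium -0.61 with TUDCA and -0.375 with vehicle, and erythroid genes -0.52 with TUDCA and -1.16 with vehicle. The adipocyte means were closer, at -0.71 with TUDCA and -0.612 with vehicle, and the median difference of that list was -0.0819. The difference was called for 0 members of these 7 lists, and the part that cell makeup had in the other results was not tested.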

How the data were processed

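RNA of 13 whole hearts was hybridised to Illumina MouseRef-8 v2 BeadChips, 1 array per heart. The authors deposited raw bead intensity and a detection p-value per probe from GenomeStudio, neither background-subtracted nor normalized, and a normalized log2 table of 11732 probes, which matched the raw table after quantile normalization without background subtraction. Of 25697 raw probes, 13557 with a detection p under 0.05 on at least 3 arrays were kept after normexp background correction from the negative controls (offset 16), quantile normalization and log2 transformation in limma 3.58.1 under R 4.3.3. Symbols were available for 11078 probes, and the brightest probe stood for each of 8336 genes. Saturation limits the brightest probes, since the top of the intensity scale compresses differences.

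Groups came from the sample titles and heart numbers from the sample descriptions. A linear model with 4 group means was fitted to all arrays with lmFit and eBayes, two-sided, and p-values were adjusted by Benjamini-Hochberg over 8336 genes at 0.05. The contrasts were the response with TUDCA, the response with vehicle, their difference, and the response with TUDCA minus 0.5 times the response with vehicle. Standard errors follow ±. The model was run on simulated data with independent noise in each gene and heart and shifts in TUDCA-TAC alone. Effects shared by the genes of an array were not simulated. The genes named were the 10 most negative and 10 most positive called differences, in each list up to 2 genes ranked by p of the difference and up to 2 ranked by p of the contrast with 0.5 times the vehicle response, the ends of ranges, the genes named in the article, and genes whose promoter is printed. Members, lists and rules were chosen with earlier results of these data known. Promoters came from RefSeq (GRCm38.p6). Where no array of a group was above background, a bound on the fold was computed against the lowest signal above background. Alternatives covered background correction, normalization, probe filters, probe averaging, the variance model, array weights, the methods' two-way ANOVA, thresholds, a background covariate, a block by replicate or title number and each heart left out. The array number limits the precision.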

Additional observations from a re-analysis of the deposited data

Results flagged for a closer look

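Within the TUDCA-TAC group, heart 4 lay far from the other 3 on the array measures: its background intensity was 164.4, its median intensity 228.7 and its ratio of the 90th to the 25th percentile 19.3. The same heart lay apart in the log2 level of Acta1 (14.45), Col1a2 (9.04), Ctss (7.314), Gxylt2 (7.473), Nppb (14.67), Prkag2 (9.195) and Wnt5a (9.646). It also lay apart in the mean level of the coagulation list (10.73) and of the fibroblast list (10.8). TUDCA-TAC heart 3 lay apart in Col16a1 (10.97), Col6a1 (12.91) and the mean of the matrix proteases and inhibitors (9.322). These were 9 of 86 genes and 3 of 70 lists, where chance alone marks about 1 in 20, and the other groups had 3 hearts and were not tested.

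The responses in the 2 treatments differed, by limma's test of the difference itself, for 178 genes. Among the genes named in the text the negative differences, on the log2 scale and lower with TUDCA, were those of Sfrp2 (-2.75), Matn4 (-2.63), Nox4 (-2.62), Ptn (-2.60), C1qtnf3 (-2.39), Mt2 (-1.92), Gxylt2 (-1.89), Mdk (-1.87), Col3a1 (-1.85), Lox (-1.84), Ctss (-1.83), Uchl1 (-1.78), Col1a2 (-1.75), Ctsk (-1.70), Mfap2 (-1.70), Ms4a7 (-1.69) and Ccn4 (-1.65). Smaller ones were those of Lgals3 (-1.50), Anxa1 (-1.43), Cxcl13 (-1.42), Ccl12 (-1.41), Thbs2 (-1.40), Lyz2 (-1.38), Nupr1 (-1.25), Cxcl16 (-1.05), Snapc1 (-1.03), Fcgr3 (-0.955) and Tgif1 (-0.953). Positive differences were those of Sh3gl2 (1.88), Ano10 (1.77), Ces1d (1.68), Ky (1.68), Srrm4 (1.51), Scn4b (1.51), Btbd11 (1.45), Tnfrsf19 (1.44), Itgb6 (1.42), Camk2a (1.37), Acot1 (1.32), Acsl6 (1.23), Emilin2 (1.18), Wnt5a (1.10), Mcm2 (1.05), Decr1 (0.741) and Idh3a (0.66). Srrm4 and Tnfrsf19 were not above background on any Veh-TAC array, so that their values use signals at the floor and are no measured size.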

How the results depend on the processing

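All 178 called differences kept their sign in every alternative that measured them, but their sizes moved. In the authors' normalized table the difference was -1.5 for Nox4, -1.1 for Matn4, -0.835 for Mt2 and -0.959 for Gxylt2. For Sh3gl2 it was 0.703 and for Mcm2 0.391, while Col3a1 (-1.7), Lox (-1.6) and Ces1d (1.62) changed less. The order of genes by size thus holds for the main fit. The count of calls moved widely too. It was 279 (173 lower) without background correction, 277 (172 lower) in the authors' normalized table, 83 (38 higher, 45 lower) with arrays scaled by their median, 42 (20 higher, 22 lower) by two-way ANOVA without moderation after adjustment, and 892 (480 higher, 412 lower) with array weights. With array weights 53.8% of the calls were higher with TUDCA, against 39.9% in the main fit, and the contrast with 0.5 times the vehicle response was called for 3 genes above and 13 below. With probes detected on all 13 arrays, 1 gene was called below 0.5 times. Array background as a covariate left 39 calls (12 higher, 27 lower), and together with leaving out TUDCA-TAC heart 4, a choice made after seeing the data, 3 calls (0 higher, 3 lower). Without TUDCA-TAC hearts 3 and 4 there were 93 (38 higher, 55 lower). By looser rules 1004 genes (445 higher, 559 lower) passed 1.5-fold at an unadjusted p under 0.05, with 108 above and 234 below 0.5 times, and unadjusted ANOVA gave 1634 (848 higher, 786 lower), with 186 above and 659 below.

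With single hearts left out the total ran between 8 and 401, the higher calls between 1 and 212 and the lower calls between 7 and 189. It was 76, 37, 165 and 94 without TUDCA-TAC hearts 1 to 4, 70, 11 and 34 without TUDCA-Sham hearts 1 to 3, 401, 12 and 8 without Veh-TAC hearts 1 to 3, and 22, 22 and 12 without Veh-Sham hearts 1 to 3. The cause was not tested. A replicate block gave 89 calls (25 higher, 64 lower), but hearts with the same number in their descriptions share only a number: of 18 pairs, 8 had correlated deviations over 0.1, with a range of -0.381 to 0.438. A block by the numbers in the titles, added after seeing the data, gave 0 calls in limma (0 higher, 0 lower), with 876 genes at an unadjusted p under 0.05. This block lost most calls of every kind: 27 genes were called with vehicle and 5 with TUDCA, against 2083 and 149 in the main fit. Its slope was 0.591. It leaves 1 of 3 Veh-TAC hearts with a number that another group shares, and 3 of its 8 pairs had correlations over 0.1 (-0.386 to 0.384). A slide block was not run, since the slide of an array was not analysed here.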
